A study of Mus musculus with 2 samples.

Results

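Extracellular matrix genes, with the enzymes that crosslink the matrix and the proteases that cut it, were followed in iHFSC2, a mouse cell line derived from stem cells of the hair follicle and immortalized. The set was given as 59 gene symbols, matched by symbol to a table of 22383 genes, and 58 of the 59 were found there. Fbn2 was not analysed here. Both groups are iHFSC2 cells infected with lentivirus, selected with puromycin from day 4 after infection and established as stable lines by day 15. The shcircSmad5 cells carry a short hairpin RNA against circSmad5, a circular RNA of the Smad5 gene, and the empty vector cells carry the same kind of vector without the hairpin. Each group is 1 line with 1 library of total RNA depleted of ribosomal RNA, and no line with a control hairpin is among the samples. The comparison asks which genes differ in level between cells with the hairpin and cells without it. An effect of the hairpin cannot be told apart from other differences between 2 separately selected lines, and gene counts do not measure circSmad5 itself.

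The extracellular matrix is the protein network outside the cell. Hair follicle stem cells sit on a basement membrane, a thin sheet in which laminin and type IV collagen form networks that perlecan, agrin and nidogen link, while fibrillar collagens and fibronectin fill the dermis beneath. Lysyl oxidases crosslink collagen and elastin, matrix metalloproteinases cut matrix proteins, and the TIMP proteins inhibit those metalloproteinases.

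The libraries held 38382081 gene counts for shcircSmad5 cells and 39261010 for empty vector cells. Counts were set on a common scale by TMM, and a log2 ratio below 0 means lower in shcircSmad5 cells. With 1 library per group there is no replicate error and no test. A gene was therefore called lower or higher by size, with 3 conditions: 20 counts or more in either library, a difference of at least 2-fold, and an exact 95% counting interval of the ratio that excludes 1. These intervals cover counting error only. CPM is the count relative to the scaled library total, and FPKM is the deposited count divided by exon length and library total, the scale on which genes can be set beside each other. Every fold and log2 ratio given here is of the TMM-scaled counts unless another scale is named. With total counts as the scale, as in FPKM, each log2 ratio is 0.06 higher. The keratinocyte markers that define this epithelium were abundant, with Krt5 at 224675 counts in shcircSmad5 cells and 206538 in empty vector cells, and none of the 8 was called. Of the 5 measured hair follicle stem cell markers, Krt15 and Dkk3 were called lower and the other 3 were not called. Sox9 had 5301 counts in shcircSmad5 cells and 8829 in empty vector cells, Nfatc1 had 2077 counts in shcircSmad5 cells and 2300 in empty vector cells, and Tcf7l1 had 498 counts in shcircSmad5 cells and 483 in empty vector cells. Krt15 had 79 counts in shcircSmad5 cells and 253 in empty vector cells, and Dkk3 had 3 counts in shcircSmad5 cells and 439 in empty vector cells. The defining markers Cd34 and Lhx2 were at or near 0, with Cd34 at 0 in both and Lhx2 at 5 counts in shcircSmad5 cells and 4 in empty vector cells.

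Most abundant matrix genes differed by less than 2-fold between the lines, and a smaller set was lower in shcircSmad5 cells. Of the 58 genes, 41 reached 20 counts in either library and are called measured here. Of these, 12 were called lower and 1 higher, and 28 were called neither. The lower genes were Lox, Col6a3, Fn1, Thbs2, Tnc, Timp1, Timp3, Col4a5, Mmp10, Tgfbi, Mmp13 and Plat, and the higher gene was Htra1. Called lower were 29.3% of the measured members, beside 6.24% of all 13596 measured genes and 6.38% of the protein-coding ones. Called higher were 2.44% of the members, beside 8.43% of all measured genes and 4.6% of the protein-coding ones. The median log2 ratio was -0.38 over the measured members, -0.02 over all measured genes and -0.05 over the protein-coding ones. A ratio below 1 was found for 70.7% of the measured members and 55.1% of the measured protein-coding genes. The members together took 0.881% of the counts of shcircSmad5 cells and 0.899% of those of empty vector cells, so their summed share was close in both lines.

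The few fibroblast and endothelial markers that were measured differed in the same direction as the lower matrix genes. Of 14 fibroblast markers, 12 were listed and 3 were measured, and all 3 were called lower: Pdgfra with 62 counts in shcircSmad5 cells and 161 in empty vector cells, Prrx1 with 64 counts in shcircSmad5 cells and 243 in empty vector cells and Twist2 with 15 counts in shcircSmad5 cells and 52 in empty vector cells. In Twist2, 46.5% of the exonic sequence is overlapped by an opposite-strand gene, and the strand setting of the counting is not given. The summed level of the fibroblast list was 4.36 CPM in shcircSmad5 cells and 12.5 in empty vector cells. Lum and Dpt, defining fibroblast genes, were at 0 in both. Among those too scarce to be measured, Cd248 had 15 counts in shcircSmad5 cells and 8 in empty vector cells, and Mfap5 had 4 and 2. In the same order, Fap had 3 and 0, Vim had 8 and 9, and Pdgfrb, S100a4 and Dpp4 had 0 and at most 2. Of the endothelial markers 3 were measured and all were called lower. Pecam1 had 27 counts in shcircSmad5 cells and 81 in empty vector cells, Kdr had 4 and 33, and Vwf had 6 and 33. Twist2, Kdr and Vwf reached 20 counts only in empty vector cells, so they were measured only through the line where they were higher. The summed level of the endothelial list was 0.943 CPM in shcircSmad5 cells and 3.96 in empty vector cells. Cdh5 was at 0 in both. Every fibroblast and endothelial marker called lower was under 1 FPKM in both lines. At that level, taking the higher FPKM of both libraries, 15.5% of all measured genes were called lower. The melanocyte and immune lists had no called gene, with summed levels of 11.7 and 5.76 CPM in shcircSmad5 cells and 22.2 and 6.69 in empty vector cells. In bulk RNA, fewer cells of a type and less RNA per cell cannot be told apart. Whether fibroblasts or endothelial cells were present at all, and any part of them in the lower matrix genes, was not tested.

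**Figure D1:**
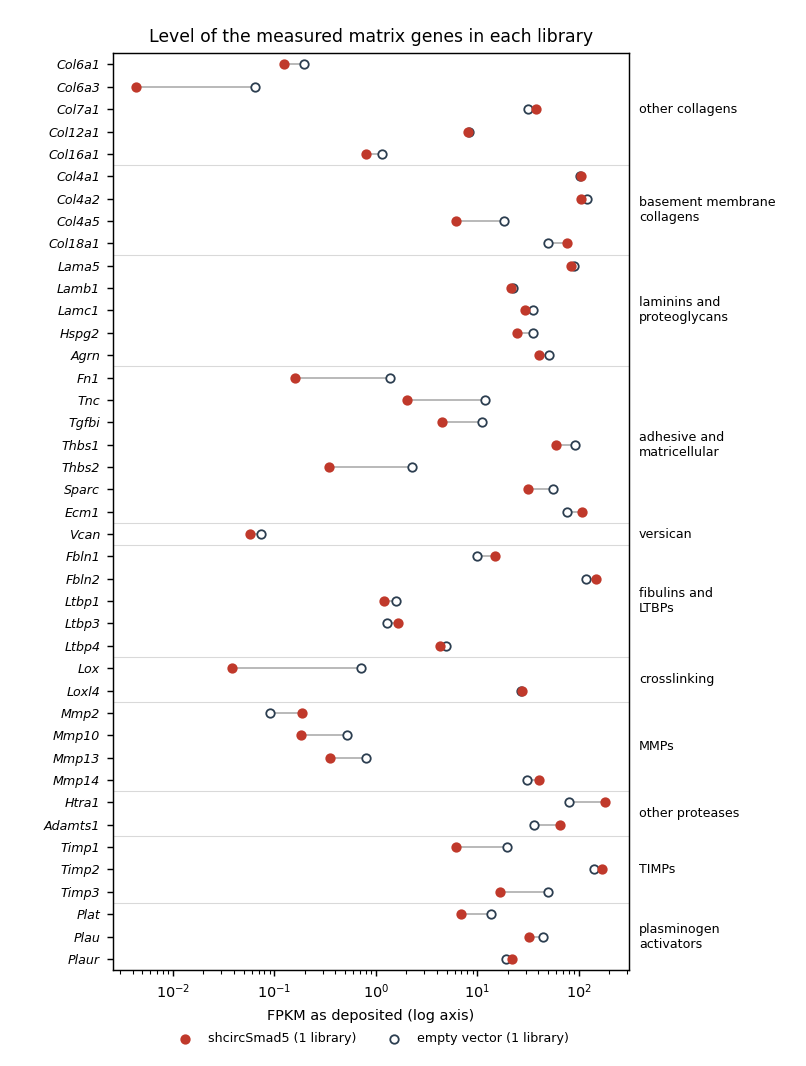
Level of each of the 41 measured matrix genes in FPKM (log axis), grouped by role, with 1 point for the shcircSmad5 library and 1 for the empty vector library. Lox, Fn1, Thbs2 and Tnc show the widest gaps among genes above 0.5 FPKM in empty vector cells, while Col4a1, Loxl4 and Lama5 have points that nearly coincide.

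The calls lay mainly at low and middle levels. Taking the higher FPKM of both libraries, 4 of the 7 measured members under 1 FPKM were called lower, beside 15.5% of all measured genes at that level. Among those members, Lox, Col6a3 and Mmp10 reached 20 counts only in empty vector cells, and Mmp2, not called, only in shcircSmad5 cells. Between 1 and 5 FPKM, 2 of 6 were called lower, beside 6.36% of all genes, and between 5 and 20 FPKM 5 of 7 were, beside 3.31%. At 20 FPKM or more, 1 of 21 members (Timp3) was called lower and 1 (Htra1) higher, and 2.59% of all genes there were called lower. The other 17 listed members had at most 15 counts in either library and were not measurable at this depth. They include all 5 fibrillar collagens, the chains of the thick fibers of the dermis, none of which had over 2 counts. Col1a1, Dcn and Loxl1 had 0 counts in both libraries.

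**Figure D2:**
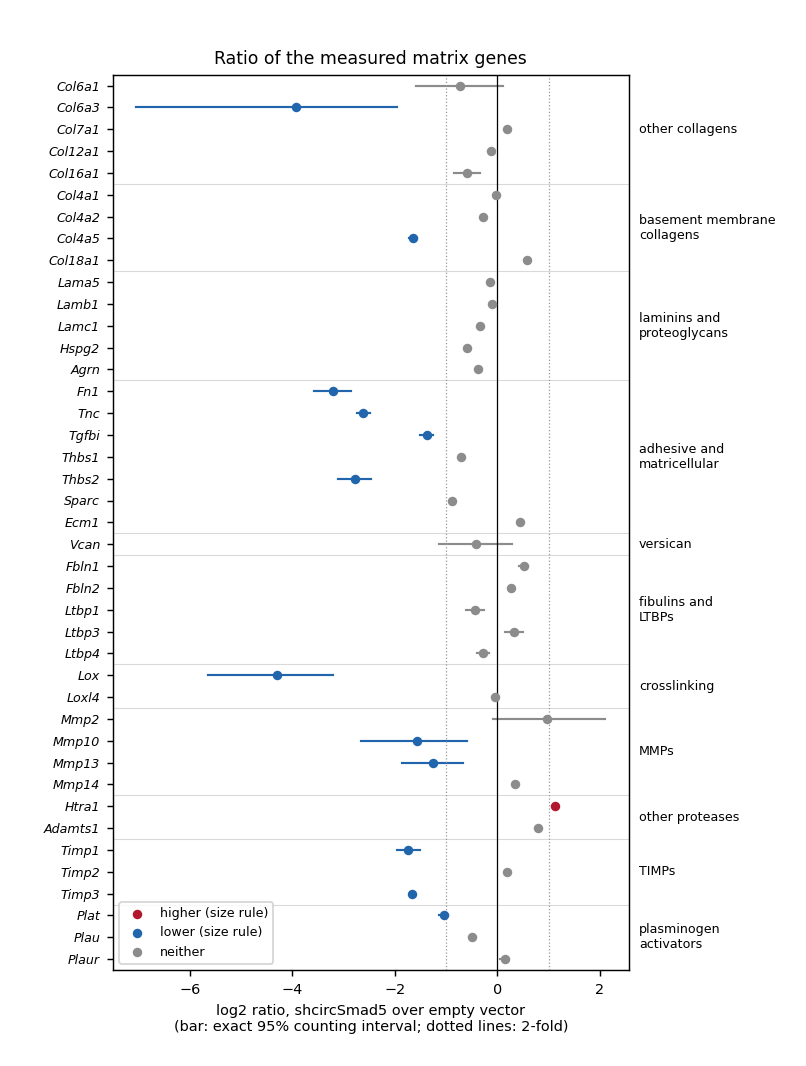
Log2 ratio of shcircSmad5 over empty vector for the 41 measured members, with bars for the exact 95% counting interval and the 2-fold limits marked. The 12 genes called lower spread between -4.30 and -1.05, and Htra1 is the only one called higher.

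The 2 main chains of type IV collagen, which forms the network of the basement membrane, were level or nearly so, while the minor chain Col4a5 was lower. Col4a1 had 105 FPKM in shcircSmad5 cells and 103 in empty vector cells, and Col4a2 had 104 FPKM in shcircSmad5 cells and 121 in empty vector cells. Their log2 ratios were -0.03 and -0.27, so neither came near the 2-fold limit, and the sign for Col4a1 flips with total counts as the scale. Col4a5 (ENSMUSG00000031274, chromosome X, 141475385 to 141689234, on GRCm38 as for every gene position here) had 1583 counts in shcircSmad5 cells and 4860 in empty vector cells, which is 3.13-fold lower (95% counting interval 2.96 to 3.32). Col18a1, the source of endostatin, had 76.7 FPKM in shcircSmad5 cells and 49.6 in empty vector cells, a log2 ratio of 0.57 (0.54 to 0.60), higher beyond counting error but not called. As shares of the summed FPKM of the type IV chain genes, Col4a5 made up 2.83% in shcircSmad5 cells and 7.51% in empty vector cells, and Col4a1 made up 48.5% and 41.9%. Col4a3 and Col4a4, which join Col4a5 in the network of mature kidney glomeruli, are not among the 59 genes but belong to the same family. Col4a3 had 36 counts in shcircSmad5 cells and 176 in empty vector cells, 4.99-fold lower (3.47 to 7.36), and Col4a4 had 381 counts in shcircSmad5 cells and 1111 in empty vector cells, 2.98-fold lower (2.65 to 3.35). Col4a3, Col4a4 and Col4a5 were thus called lower and both main chains were not, while the sixth chain gene, Col4a6, had 9 counts in shcircSmad5 cells and 0 in empty vector cells. Type IV collagen genes lie in head-to-head pairs: the annotated starts of Col4a4 and Col4a3 are 72 bases apart, and those of Col4a1 and Col4a2 overlap by 22 bases. The starts of Col4a6 and Col4a5, whose counts differed in opposite directions, are 1309 bases apart.

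**Figure D3:**
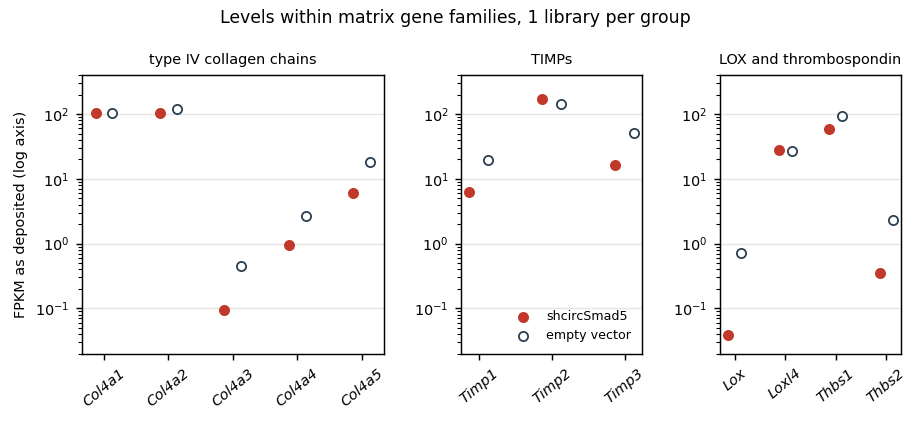
FPKM (log axis) of the type IV collagen chains, the TIMP family, and Lox, Loxl4, Thbs1 and Thbs2, with the shcircSmad5 library left of the empty vector library for each gene. The points of Col4a1, Timp2 and Loxl4 are nearly level, while those of Col4a3, Timp1, Lox and Thbs2 lie far apart.

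None of the laminin, nidogen and basement membrane proteoglycan genes among the 59 was called. Lama5, Lamb1 and Lamc1 encode the chains of a laminin of epithelial basement membranes, and their FPKM were 84.0, 21.7 and 29.7 in shcircSmad5 cells and 89.3, 22.4 and 35.9 in empty vector cells. Their log2 ratios ran between -0.34 and -0.11. Hspg2, which encodes perlecan, had the lowest ratio of the group at -0.59 (-0.62 to -0.56), with 24.5 FPKM in shcircSmad5 cells and 35.5 in empty vector cells. Agrn, which encodes agrin, had 40.8 FPKM in shcircSmad5 cells and 50.9 in empty vector cells. All 5 measured genes of the group had ratios below 1, and their summed level with Nid1 was 2111 CPM in shcircSmad5 cells and 2586 in empty vector cells. Nid1, the nidogen gene, had 0 counts in shcircSmad5 cells and 1 in empty vector cells.

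Among the collagens of the 59 that lie outside the basement membrane, Col6a3 was the only one called. Col7a1 builds the anchoring fibrils that fasten the epidermis to the dermis and had 38.0 FPKM in shcircSmad5 cells and 31.9 in empty vector cells, a log2 ratio of 0.19 (0.15 to 0.22). Col12a1, a collagen on the surface of fibrils, had 8.08 FPKM in shcircSmad5 cells and 8.40 in empty vector cells, a log2 ratio of -0.12, and Col16a1 had 209 counts in shcircSmad5 cells and 308 in empty vector cells, a log2 ratio of -0.59. The type VI chains, which form beaded filaments, were near the limit of detection. Col6a3 (ENSMUSG00000048126, chromosome 1, 90765923 to 90843971) had 2 counts in shcircSmad5 cells and 30 in empty vector cells, a ratio of 15.3-fold lower (3.89 to 132) whose interval is wide because it rests on 2 counts. Col6a1 had 21 counts in shcircSmad5 cells and 34 in empty vector cells, and its interval included a log2 ratio of 0. Col6a2 had 13 counts in shcircSmad5 cells and 5 in empty vector cells, too few to be measured.

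The adhesive and matricellular glycoproteins held the greatest number of lower calls, 4 of 7 measured genes, with a median log2 ratio of -1.38. Fn1 (ENSMUSG00000026193, chromosome 1, 71585520 to 71653200) encodes fibronectin, which cells bind through integrins, and had 71 counts in the shcircSmad5 library and 641 in the empty vector library. This is 9.22-fold lower (95% counting interval 7.21 to 12.0). Tnc (ENSMUSG00000028364, chromosome 4, 63959785 to 64047015) encodes tenascin-C, an adhesion-modulating glycoprotein of remodelled matrix, and had 602 counts in the shcircSmad5 library and 3619 in the empty vector library, 6.14-fold lower (5.63 to 6.70). Both genes were several-fold lower with intervals far from 1. Tgfbi (ENSMUSG00000035493, chromosome 13, 56609523 to 56639562), an integrin-binding matrix protein, had 651 counts in shcircSmad5 cells and 1662 in empty vector cells, 2.61-fold lower (2.38 to 2.86). The thrombospondins differed from each other in level. Thbs2 (ENSMUSG00000023885, chromosome 17, 14665500 to 14694235) had 93 counts in shcircSmad5 cells and 628 in empty vector cells, 6.89-fold lower (5.54 to 8.67), whereas Thbs1 had 13838 counts in shcircSmad5 cells and 22181 in empty vector cells, a log2 ratio of -0.71 (-0.74 to -0.68) that did not reach 2-fold. In FPKM, Thbs1 stood 172 times above Thbs2 in shcircSmad5 cells and 40.7 times above it in empty vector cells. Sparc, which binds collagen, had 32.0 FPKM in shcircSmad5 cells and 56.3 in empty vector cells, and Ecm1 had 109 FPKM in shcircSmad5 cells and 77.0 in empty vector cells. Their log2 ratios were -0.88 and 0.44, on opposite sides of 0, and Postn had 2 counts in shcircSmad5 cells and 4 in empty vector cells.

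No gene of the microfibril group or of the interstitial proteoglycans was called. Fbln2 and Fbln1 encode fibulins, which join basement membranes and elastic fibers. Fbln2 had 36208 counts in shcircSmad5 cells and 29694 in empty vector cells, and Fbln1 had 2507 counts in shcircSmad5 cells and 1718 in empty vector cells, with log2 ratios of 0.26 and 0.52. The latent TGF-beta binding proteins tether latent TGF-beta in the matrix. Ltbp1 had 498 counts in shcircSmad5 cells and 662 in empty vector cells, Ltbp3 had 582 counts in shcircSmad5 cells and 456 in empty vector cells and Ltbp4 had 1066 counts in shcircSmad5 cells and 1264 in empty vector cells. Their log2 ratios were -0.44, 0.32 and -0.28. The 5 measured genes of this group thus lay on both sides of 0, with a summed level of 1042 CPM in shcircSmad5 cells and 879.7 in empty vector cells. Vcan, the versican gene, had 32 counts in shcircSmad5 cells and 42 in empty vector cells, and Bgn, the biglycan gene, had 3 counts in shcircSmad5 cells and 15 in empty vector cells.

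In the crosslinking family the ratios of Lox and Loxl4 differed widely. Lox (ENSMUSG00000024529, chromosome 18, 52516067 to 52529867) encodes the lysyl oxidase that starts the crosslinking of collagen and elastin, and it had 7 counts in the shcircSmad5 library and 135 in the empty vector library. That is 19.7-fold lower (95% counting interval 9.30 to 49.9), the lowest ratio among the measured members. Loxl4, a lysyl oxidase-like enzyme, had 27.5 FPKM in shcircSmad5 cells and 27.1 in empty vector cells, and the log2 ratio of its scaled counts was -0.04 (-0.10 to 0.02), a difference too small to have the same sign on both scales. Loxl4 made up 99.6% of the family's summed FPKM in shcircSmad5 cells and 97.3% in empty vector cells, and Lox made up 0.138% and 2.58%. The family's most abundant transcript was thus level, and Lox was a minor one in both lines. Loxl2 and Loxl3 had at most 14 counts in either library.

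The 3 TIMP genes split by member: Timp3 and Timp1 were lower and Timp2 was not called. Timp3 (ENSMUSG00000020044, chromosome 10, 86300372 to 86349506), an inhibitor that binds to the matrix, had 5191 counts in the shcircSmad5 library and 16104 in the empty vector library, 3.17-fold lower (95% counting interval 3.07 to 3.27). The opposite-strand gene Syn3 overlaps 21.3% of its exonic sequence, the strand setting of the counting is not given, and Syn3 had 37 counts in shcircSmad5 cells and 7 in empty vector cells. Timp1 (ENSMUSG00000001131, chromosome X, 20870166 to 20874735), a soluble inhibitor, had 212 counts in shcircSmad5 cells and 692 in empty vector cells, 3.33-fold lower (2.85 to 3.91). Timp2, which inhibits metalloproteinases and also takes part in activating pro-MMP2 with MMP14, had 169 FPKM in shcircSmad5 cells and 142 in empty vector cells, a log2 ratio of 0.18. Timp2 was the most abundant TIMP in both lines, at 88.1% of the summed TIMP FPKM in shcircSmad5 cells and 66.9% in empty vector cells. Timp3 made up 8.67% in shcircSmad5 cells and 23.7% in empty vector cells, and the ratio of Timp2 to Timp3 was 10.2 in shcircSmad5 cells and 2.82 in empty vector cells.

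The sequences just upstream of the RefSeq starts of the TIMP genes and of 3 metalloproteinase genes are shown because their members differ in ratio within each family. Each is the 140 bases that end 1 base before the RefSeq start on GRCm38.p6, written along the gene's own strand, in lower case with any AP-1 motif (TGACTCA or TGAGTCA, each the reverse complement of the other) and any TATAAA, on either strand, in capitals.
Timp1 (chrX:20870026-20870165, plus strand): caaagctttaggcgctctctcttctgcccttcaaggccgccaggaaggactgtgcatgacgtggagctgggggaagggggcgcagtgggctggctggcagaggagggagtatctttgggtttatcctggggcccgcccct
Timp3 (chr10:86300272-86300411, plus strand): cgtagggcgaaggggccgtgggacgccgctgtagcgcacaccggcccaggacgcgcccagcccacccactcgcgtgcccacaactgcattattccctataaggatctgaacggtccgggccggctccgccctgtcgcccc
Timp2 (chr11:118355412-118355551, minus strand): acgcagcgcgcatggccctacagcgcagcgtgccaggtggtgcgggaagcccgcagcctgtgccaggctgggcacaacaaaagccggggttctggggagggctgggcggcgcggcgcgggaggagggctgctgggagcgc
Mmp10 (chr9:7502202-7502341, plus strand): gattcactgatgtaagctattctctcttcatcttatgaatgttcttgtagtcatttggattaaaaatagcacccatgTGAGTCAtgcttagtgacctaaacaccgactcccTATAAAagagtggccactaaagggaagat
Mmp13 (chr9:7272374-7272513, plus strand): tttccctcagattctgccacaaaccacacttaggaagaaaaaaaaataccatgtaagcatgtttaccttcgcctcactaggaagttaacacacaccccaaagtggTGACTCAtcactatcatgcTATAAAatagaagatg
Mmp14 (chr14:54431458-54431597, plus strand): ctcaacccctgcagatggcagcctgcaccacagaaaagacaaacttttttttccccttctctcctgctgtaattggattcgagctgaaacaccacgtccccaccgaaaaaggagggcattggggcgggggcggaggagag
The Mmp10 and Mmp13 stretches hold both motifs, with the AP-1 letters starting at -63 and -35 and the TATAAA at -29 and -16, counted from -1 at the base before the start. Neither motif was found in the 3 TIMP stretches or in that of Mmp14. The RefSeq starts differ from the GENCODE M21 gene positions for 2 of the TIMP genes. The Timp2 stretch lies inside the GENCODE gene, which starts at 118355740 on the minus strand. The Timp3 stretch runs past the GENCODE start at 86300372. For these 2 genes the stretch is thus not wholly upstream sequence by GENCODE. Searched over 250 bases before to 50 after the start, on both strands, the AP-1 letters were found for 6 of 33 measured members with a window (18.2%), beside 4.85% of the 9637 measured genes with a window and 5.95% of all 27025 genes in the RefSeq table. They were found for 2 of the 9 lower members with a window, Mmp10 and Mmp13. TATAAA was found for 6 of 33 measured members (18.2%), beside 8.62% of measured genes and 15.7% of all genes, and for 4 of the 9 lower members (Mmp10, Mmp13, Thbs2 and Tnc). Of 2 further motifs tied to Smad binding, CAGACA was found for 10 of 33 measured members and 3 of the 9 lower ones, beside 18.5% of measured genes. GGCGCC was found for 9 of 33 and 1 of the 9, beside 24.6% of measured genes. A match is a description of letters, not of binding.

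The metalloproteinases called lower were the scarce ones. Mmp10 (ENSMUSG00000047562, chromosome 9, 7502352 to 7510240), a stromelysin, had 12 counts in shcircSmad5 cells and 35 in empty vector cells, 2.98-fold lower (1.51 to 6.30). Mmp13 (ENSMUSG00000050578, chromosome 9, 7272514 to 7283331), a collagenase, had 36 counts in shcircSmad5 cells and 84 in empty vector cells, 2.38-fold lower (1.59 to 3.62). Both were under 1 FPKM in each line. Mmp14, a membrane-anchored collagenase, was the most abundant of the group with 41.0 FPKM in shcircSmad5 cells and 30.8 in empty vector cells, a log2 ratio of 0.35 (0.30 to 0.39). Mmp2, a gelatinase, had 24 counts in shcircSmad5 cells and 12 in empty vector cells, and its interval included a log2 ratio of 0. Both lower calls of this group were therefore in genes with at most 84 counts in either library. Outside the 59 genes, the related Mmp1b and Mmp12 on the same chromosome were also called lower. Mmp1b had 17 counts in shcircSmad5 cells and 36 in empty vector cells, and Mmp12 had 9 and 22. These 2 genes overlap each other on opposite strands, over 10.8% of the exonic sequence of Mmp1b and 2.17% of that of Mmp12. The strand setting of the counting is not given, so reads may be shared between them. Mmp3, a stromelysin also on chromosome 9, had 9 counts in shcircSmad5 cells and 2 in empty vector cells. The median log2 ratio of all measured genes on chromosome 9 was 0.12.

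Htra1 was the only member called higher. Htra1 (ENSMUSG00000006205, chromosome 7, 130936111 to 130985660) encodes a secreted serine protease that cuts matrix proteins such as fibronectin, and it had 20235 counts in the shcircSmad5 library and 9081 in the empty vector library. On the scaled counts this is 2.18-fold higher (95% counting interval 2.13 to 2.24). Its FPKM was 183 in shcircSmad5 cells and 80.3 in empty vector cells. Adamts1, a secreted metalloproteinase that cuts versican, had 65.7 FPKM in shcircSmad5 cells and 36.5 in empty vector cells, a log2 ratio of 0.78 (0.74 to 0.82), which did not reach 2-fold. The plasminogen activators turn plasminogen into plasmin. Plat (ENSMUSG00000031538, chromosome 8, 22757727 to 22782844), the tissue-type activator, had 1652 counts in the shcircSmad5 library and 3353 in the empty vector library, 2.07-fold lower (95% counting interval 1.95 to 2.20). Its call is lost with total counts as the scale, where the log2 ratio is -0.99, and with each chromosome centred on its own median, where it is -0.92. Plau, the urokinase gene, had 32.7 FPKM in shcircSmad5 cells and 44.1 in empty vector cells, and its receptor Plaur had 22.1 FPKM in shcircSmad5 cells and 19.1 in empty vector cells, with log2 ratios of -0.49 and 0.15. Of the 3 genes of the plasminogen activator system Plat was thus the only one called.

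**Figure D4:**
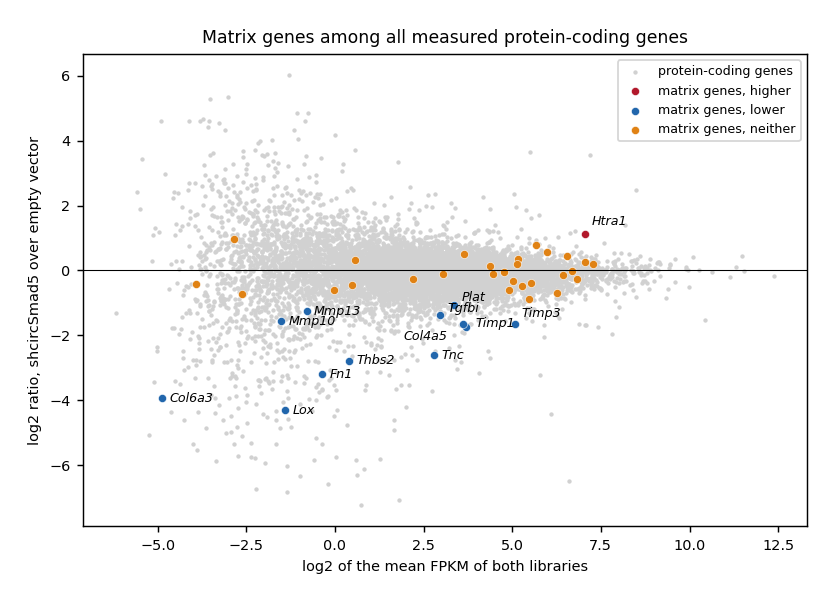
Log2 ratio of shcircSmad5 over empty vector against the log2 of the mean FPKM of both libraries for all measured protein-coding genes (grey), with the measured matrix members in color by call. Other genes scatter more widely at low levels, where Col6a3 and Lox lie, while Htra1 and Timp3 lie at the high end among the narrower spread.

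Lower calls were also frequent among matrix genes outside the 59. A further 183 matrix genes were named from pathway knowledge, with earlier results of these data known, so the list is not independent support. Of these, 137 were listed and 83 were measured. Of the measured ones, 17 (20.5%) were called lower and 7 (8.43%) higher, with a median log2 ratio of -0.15. Of all measured genes 6.24% were called lower and 8.43% higher, so the share called higher was at the background. Many of the lower genes were scarce: Col4a3, Smoc1, Smoc2, Tnxb, P3h1, Pcolce, Mmp1b and Mmp12 were under 1 FPKM in both lines. At that level 15.5% of all measured genes were called lower. Smoc1, Smoc2, Mmp1b and Mmp12 reached 20 counts only in empty vector cells, and Npnt and P3h3, called higher, only in shcircSmad5 cells. Besides Col4a3 and Col4a4, the collagens called were Col8a1, a short-chain collagen, with 452 counts in shcircSmad5 cells and 1185 in empty vector cells, 2.68-fold lower (2.40 to 2.99), and Col20a1, with 554 counts in shcircSmad5 cells and 160 in empty vector cells, 3.39-fold higher (2.84 to 4.07). Ccn2, a matricellular growth factor binding protein, had 10585 counts in the shcircSmad5 library and 39986 in the empty vector library, 3.86-fold lower (3.78 to 3.94), with 23.2% of its exonic sequence overlapped by an opposite-strand gene. Tnxb, which encodes tenascin-X, had 30 counts in shcircSmad5 cells and 388 in empty vector cells, 13.2-fold lower (9.10 to 19.8), and Pxdn, a peroxidase that crosslinks type IV collagen, had 1575 counts in shcircSmad5 cells and 381 in empty vector cells, 4.05-fold higher (3.62 to 4.54). Of the other basement membrane genes Smoc2 had 2 counts in shcircSmad5 cells and 63 in empty vector cells, 32.2-fold lower (8.54 to 271), Smoc1 had 6 counts in shcircSmad5 cells and 23 in empty vector cells, 3.91-fold lower (1.55 to 11.8), and Npnt, which encodes the integrin ligand nephronectin, had 31 counts in shcircSmad5 cells and 12 in empty vector cells, 2.53-fold higher (1.26 to 5.41). Among genes that modify or process collagen and other matrix molecules, 5 of 21 measured genes were called lower and 1 higher. Plod2, a lysyl hydroxylase, had 144 counts in shcircSmad5 cells and 453 in empty vector cells, P3h1, a prolyl hydroxylase, had 40 counts in shcircSmad5 cells and 140 in empty vector cells, Fkbp10, a chaperone of collagen, had 589 counts in shcircSmad5 cells and 1577 in empty vector cells, and Sulf1, which trims heparan sulfate, had 702 counts in shcircSmad5 cells and 1829 in empty vector cells. These 4 genes were 3.21-fold, 3.57-fold, 2.73-fold and 2.66-fold lower. Of the 25 measured proteases and inhibitors, 5 were called lower and 3 higher. Serpinb2, an inhibitor of plasminogen activators, had 7546 counts in shcircSmad5 cells and 2255 in empty vector cells, 3.28-fold higher (3.13 to 3.44), and Mmp15, a membrane-anchored metalloproteinase, had 117 counts in shcircSmad5 cells and 443 in empty vector cells, 3.87-fold lower (3.15 to 4.78). Adamts10, a metalloproteinase that acts at microfibrils, had 211 counts in shcircSmad5 cells and 90 in empty vector cells, 2.30-fold higher (1.79 to 2.97), and Mmp24 had 151 counts in shcircSmad5 cells and 66 in empty vector cells, 2.24-fold higher (1.67 to 3.04).

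Whole chromosomes differed in ratio between the lines. The median log2 ratio of measured genes was -0.43 on chromosome X, which holds Col4a5 and Timp1, and -0.38 on chromosome 17, which holds Thbs2 and Ltbp1. With each gene set against its own chromosome's median, the log2 ratios were -1.22 for Col4a5, -1.31 for Timp1 and -2.40 for Thbs2, and that of Ltbp1 was -0.06. In that centred comparison 11 members were called lower and 2 higher, beside 5.66% and 8.67% of all measured genes, and the members' median log2 ratio was -0.22. The 2 higher members were Htra1 and Mmp2, and Mmp2 had only 24 counts in shcircSmad5 cells and 12 in empty vector cells. The part of chromosome-wide differences in these ratios was not tested. With the fold limit at 1.5, 16 members were called lower, beside 12.9% of all measured genes, and 2 higher, beside 13.9%. At a limit of 3, 8 were called lower, beside 3.1%, and 0 higher, beside 4.35%.

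**Figure D5:**
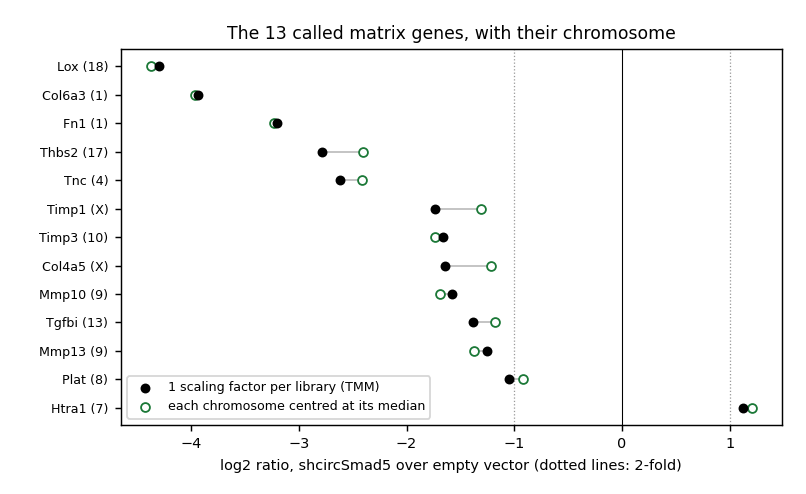
Log2 ratio of the 13 called members after TMM scaling and after centring on each gene's own chromosome median. Thbs2, Timp1 and Col4a5 move farthest toward 0, to -2.40, -1.31 and -1.22, and the sign of every gene stays as it was.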

How the data were processed

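RNA from 1 shcircSmad5 library and 1 empty vector library was used. The authors deposited whole read counts per gene and FPKM per library, per the file headers; the submitters' processing notes list HISAT2 and HTSeq 0.13.5, and name GRCm38 and GRCh38 with no role. The strand setting is not given in the sources used here, nor is the annotation. FPKM values equal the deposited counts divided by the column total and a whole-number length, which matched summed GENCODE M21 exon length for 98.3% of shcircSmad5 and 98.2% of empty vector genes. No value column was unmatched.

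TMM factors came from edgeR 4.0.16 (R 4.3.3), and ratios are shcircSmad5 over empty vector. Intervals are exact Clopper-Pearson 95% intervals of a gene's split between libraries. Counts of 0 were raised to a floor of 3 for ratios. The size rule was checked on simulated counts that held counting error alone, so the check does not cover variation between lines. With 1 library per group no p-value or standard error is given. The members and gene lists were chosen with earlier results of these data known. Named are members past the size rule, the most abundant other member of each role group, families of up to 5 genes whole and, per further matrix list, called genes of most counts; additional members were named after their values were seen. Promoters came from RefSeq (GRCm38.p6), with 43 of 59 members matched. Alternatives were total counts, DESeq2 size factors and other scalings, FPKM with pseudocounts, count minimums and fold limits, chromosome centring, protein-coding genes alone, and genes outside chromosomes 17 and X, the last added after seeing the data.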

Additional observations from a re-analysis of the deposited data

How the results depend on the processing

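Over all settings run, the number of members called lower ran between 7 and 16, and no member's call reversed. With log2(FPKM + 1), 7 members were lower, the calls of Col6a3, Lox, Mmp10, Mmp13 and Plat being lost, beside 1.58% of all genes lower and 1.44% higher under that setting, and the median log2 ratio of members was -0.18; of the other matrix genes 2 were lower and 3 higher, with a median of -0.062. With each chromosome centred, 2 members were higher, Htra1 and the scarce Mmp2, and the median of the members was -0.22. At a minimum of 100 counts, 10 other matrix genes were lower, and no share over all genes was taken at that minimum. At a fold limit of 1.5, 2 members were higher. Of the 83 measured other matrix genes, 28 were then lower and 12 higher, beside 12.9% and 13.9% of all measured genes. At a limit of 3, 0 members were higher. Of the same 83 genes, 11 were then lower and 4 higher, beside 3.1% and 4.35% of all measured genes. With totals without mitochondrial and top 20 genes, the other matrix median was -0.072. Over the alternatives, 206 member values stayed within their interval and 163 moved. The call of Plat was also lost under total counts, upper quartile scaling, totals without mitochondrial and top 20 genes, chromosome centring and log2(FPKM + 0.1), which lost Col6a3 and Mmp13 too. A minimum of 100 counts lost Col6a3, Mmp10 and Mmp13, a fold limit of 3 lost Mmp10, Mmp13, Plat and Tgfbi, and no minimum added Bgn. Without genes on chromosomes 17 and X, a setting chosen after seeing the data, 9 members were lower, with no share over all genes taken. Apart from settings that count fewer genes by construction, the cause was not tested. No paired analysis was possible because each group has 1 library. For the same reason no replicate could be left out. Depth limits the 17 members with at most 15 counts.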

Other observations

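The hairpin's target in circSmad5 (chromosome 13) is printed with the heptamer TTGCACT in capitals, the letters that would pair with bases 2 to 8 of an antisense strand that begins at the target's last base. Which strand is loaded is not stated in the sources used here, so that strand is an assumption.
shcircSmad5 target: tccagcagaggacTTGCACTa
The heptamer was found in the annotated 3′ UTR of 5 measured members, Adamts1, Agrn, Plat, Thbs2 and Timp2, of which 2 (Plat and Thbs2) were called lower. Of the other 36 measured members 10 were called lower, and the median log2 ratio was -0.38 in both sets. Over all measured genes with a 3′ UTR, 1384 held the heptamer and 5.56% of those were called lower, beside 6.48% of the 10142 without it. The median log2 ratio was -0.06 with it and -0.05 without it. The sets also differ in median 3′ UTR length, at 2448.5 bases with the heptamer and 1053 without it over all these genes. For the measured members the lengths were 1574 and 851 bases. The part of length in these comparisons was not tested.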
